A study of Mus musculus with 27 samples.

Results

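Interferon-responding fibroblasts were taken as the fibroblasts of growing-phase mouse skin that carried at least 5 unique transcript molecules (UMIs) of Isg15, Ifit1, Ifit3 and Cxcl10 together. They numbered 617 of 6509 fibroblasts in mouse 1 and 2620 of 6783 in mouse 2, or 3237 of 13292 in all. The fibroblasts of the same mouse with 0 of these UMIs, 3994 in mouse 1 and 2070 in mouse 2, served as the comparison, and the 1898 and 2093 fibroblasts with 1 to 4 such UMIs stood between them. A cell was called a fibroblast where Col1a1, Col1a2, Col3a1 and Dcn made up at least 1% of its UMIs and Krt5 and Krt14 less than 0.1%, among cells with at least 500 genes, at least 1000 UMIs and less than 10% mitochondrial UMIs.

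The cells came from back skin of 2 untreated wild-type mice at postnatal day 32, stage AnaVI, when the hair follicle is in full growth. They were profiled by droplet single-cell RNA-seq (10x Genomics, 3′ ends) in a study of hair follicle stem cells and retinoic acid whose other samples are not used here. Cells were freed with collagenase and then trypsin, and the methods describe a sort for cells without CD45, CD31, CD140a and CD117, surface proteins of immune, endothelial, fibroblast and melanocyte or mast cells. CD140a is the protein of Pdgfra, and whether every cell of these libraries passed that gate is not given in the sources used here. Pdgfra RNA was present, at 293 and 415 counts scaled to 1000000 UMIs of the summed cells (CPM) in the interferon-responding fibroblasts of mouse 1 and mouse 2 and 304 and 418 CPM in the comparison cells.

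Interferons are secreted proteins that warn tissue of viruses and other danger. Type I interferons bind the receptor pair Ifnar1 and Ifnar2, type II interferon binds Ifngr1 and Ifngr2, and both act through Janus kinases on transcription factors, among them Stat2 and Irf9, which enter the nucleus and switch on interferon-stimulated genes (ISGs). Among the ISGs are antiviral effectors, the ubiquitin-like protein Isg15 with its conjugating enzymes, sensors of foreign nucleic acid, GTPases that attack pathogen-holding vacuoles, and the machinery that displays peptides on MHC class I. Cxcl10 is a chemokine that draws T cells, and it can also be switched on by NF-kB.

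The transcription factors of the type I response bind a short promoter element, the interferon-stimulated response element (ISRE). Promoter stretches of the genes that define the cells and of 3 genes tested below are shown because they hold its core, which is GAAA, any 2 bases and GAAA again, or TTTC, any 2 bases and TTTC where the core lies on the other strand. Capitals mark the core, and runs of capitals longer than 10 bases are overlapping cores. Each is written 5′ to 3′ on the strand of its gene and comes from the RefSeq promoter (250 bases before to 50 after the start) in build GRCm38.p6. Isg15 lies on chr4:156200850-156200921 (minus strand), Ifit1 on chr19:34640760-34640838 (plus), Ifit3 on chr19:34583348-34583406 (plus), Cxcl10 on chr5:92349068-92349127 (minus), Bst2 on chr8:71537562-71537627 (minus), Igtp on chr11:58199497-58199555 (plus), Irgm1 on chr11:48871421-48871475 (minus) and Oas1a on chr5:120907526-120907570 (minus).
Isg15: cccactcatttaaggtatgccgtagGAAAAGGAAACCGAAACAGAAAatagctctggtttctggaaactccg
Ifit1: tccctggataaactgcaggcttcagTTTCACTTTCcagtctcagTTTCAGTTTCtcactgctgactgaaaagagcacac
Ifit3: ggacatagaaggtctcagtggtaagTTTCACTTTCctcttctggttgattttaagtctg
Cxcl10: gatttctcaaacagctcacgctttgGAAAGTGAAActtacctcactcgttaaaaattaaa
Bst2: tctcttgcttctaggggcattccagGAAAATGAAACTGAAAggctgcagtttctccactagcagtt
Igtp: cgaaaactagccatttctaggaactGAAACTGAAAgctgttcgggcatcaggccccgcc
Irgm1: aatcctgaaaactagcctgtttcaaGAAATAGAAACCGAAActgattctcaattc
Oas1a: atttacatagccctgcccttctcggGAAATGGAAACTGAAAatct

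All 5 of the genes that mark the cells (Isg15, Ifit1, Ifit3, Cxcl10 and Bst2) held the core in these windows. It was found on either strand in 466 of the 12138 tested genes that have a promoter in the table, or 3.84%. The stretch printed for Ifit3 was letter for letter the same in the promoter of its close copy Ifit3b (chr19:34607744-34607802).

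The cells of mouse 2 were somewhat deeper. Mouse 1 gave 14458 cells within the limits, with a median of 8869 UMIs, and mouse 2 gave 13915 with a median of 10594. Over the fibroblasts alone the medians were 9163 UMIs in mouse 1 and 11800 in mouse 2. The matrices shared 62 barcodes, 9 of them fibroblasts in both, and no member of the interferon-responding set was shared. Interferon-responding fibroblasts were deeper than the comparison cells, with a median of 10758 against 8617.5 UMIs in mouse 1 and 13138 against 9733.5 in mouse 2, and a fixed minimum of 5 UMIs is passed more easily by deeper cells. Scrublet marked 6.16% and 6.53% of them as doublets, against 7.89% and 4.73% of the comparison cells.

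The share of fibroblasts that met the rule differed widely between the mice. It was 9.48% in mouse 1 (exact binomial 95% interval 8.78 to 10.2) and 38.6% in mouse 2 (37.5 to 39.8), intervals that cover counting error only and not the spread between animals. With each cell thinned to 3000 UMIs and at least 3 of them from the 4 genes, the shares were 5.96% and 26.7%. One library per mouse and one group of mice allow no test of this difference, and the animal and its library cannot be told apart.

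The mice also differed in which of the 4 genes carried the UMIs, which is a description since these genes chose the cells. Isg15 stood at 377 CPM in the interferon-responding fibroblasts of mouse 1 and 806 CPM in those of mouse 2. Ifit1 stood at 156 and 144 CPM, and Ifit3, like Ifit1 a protein that binds foreign RNA complexes, at 118 and 224 CPM. Cxcl10 stood at 459 CPM in mouse 1, the highest of the 4 genes there, and at 288 CPM in mouse 2. UMIs of all 4 genes were seen in 51 of the 617 cells of mouse 1 and in 520 of the 2620 cells of mouse 2, and UMIs of a single one in 168 and 220 cells. The median cell carried 9 UMIs of the 4 genes in mouse 1, with a maximum of 150, and 14 in mouse 2, with a maximum of 572. There was no gap at the threshold: 130 and 265 fibroblasts had exactly 4 of these UMIs and 93 and 206 had exactly 5.

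Genes that the rule did not use climbed step by step with the number of UMIs of the 4 genes. The summed level of 18 guanylate-binding and immunity-related GTPases was 103 CPM in cells of mouse 1 with 0 such UMIs, 161 with 1 to 2, 259 with 3 to 4, 349.7 with 5 to 9, 438 with 10 to 19 and 1249 with 20 or more. In mouse 2 the same sums were 151, 206, 330.2, 455, 641 and 1082 CPM. The highest bin held only 88 cells in mouse 1 but 909 in mouse 2. The 10 genes of Isg15 conjugation and the PARP family went from 112 to 721 CPM and from 125 to 641 CPM between the lowest and the highest bin. In both mice every bin stood above the one before it for both lists.

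**Figure D1:**
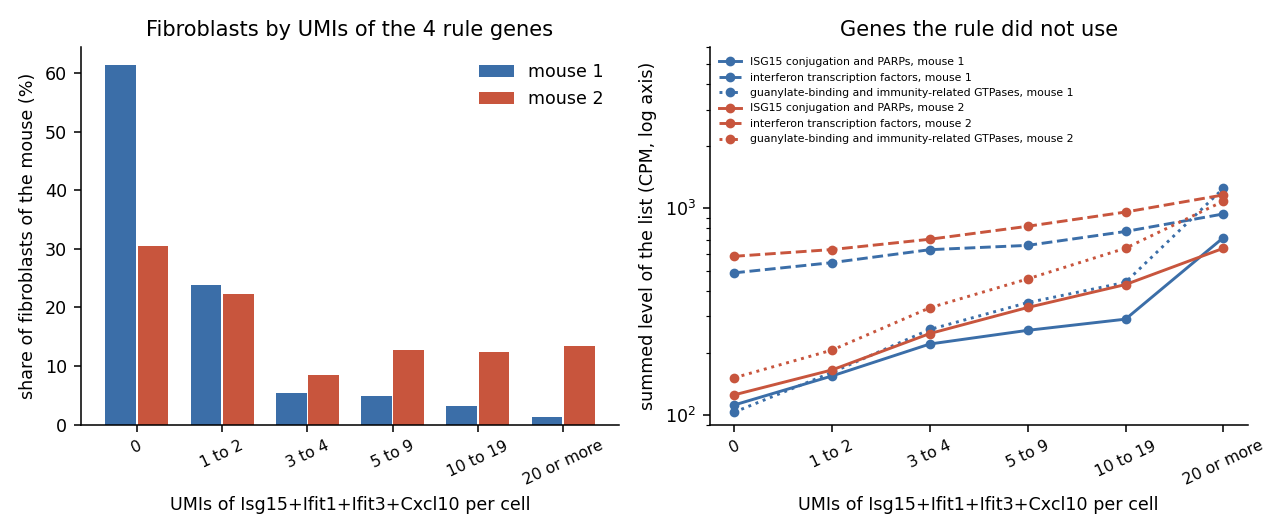
Left, share of the fibroblasts of each mouse (percent, bars) by the number of Isg15, Ifit1, Ifit3 and Cxcl10 UMIs in the cell; right, summed level (CPM, log axis) of 3 gene lists that hold none of these 4 genes, by the same bins, with blue for mouse 1 and red for mouse 2. Mouse 2 has the larger share in each bin from 3 to 4 UMIs upward, and all 3 lists rise from bin to bin in both mice, the GTPases from 103 to 1249 CPM in mouse 1.

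Bst2 is the one marker of these cells that did not enter the choice. Its protein, tetherin, holds budding virus at the cell surface. Bst2 stood at 223 CPM in the interferon-responding fibroblasts of mouse 1 and 1010.4 CPM in those of mouse 2, at 122 and 331 CPM in cells with 1 to 4 UMIs and at 77.5 and 127 CPM in cells with 0. The level in the responding cells was above that of the comparison cells in both mice, 2.87-fold in mouse 1 and 7.98-fold in mouse 2. With all cells thinned to 3000 UMIs, a Bst2 UMI was seen in 45.0% of the responding cells of mouse 1 and 86.8% of those of mouse 2, against 20.1% and 25.9% of the comparison cells. Without thinning the shares were 78.8% and 98.1% against 40.3% and 49.6%. Among keratinocytes with high Krt5 and Krt14, 2.60% and 6.90% had a Bst2 UMI after thinning (5.88% and 22% without), at median depths of 7113.5 and 10288 UMIs. Other cells also held Bst2. Cells with immune UMIs had 127 and 374 CPM of it and cells with endothelial UMIs 55.3 and 256, against 108 and 579 over all fibroblasts. The part of free RNA in any of these shares and levels was not tested.

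For the tests, raw UMI counts were summed over the cells of each group in each mouse, and the resulting 6 sums were compared by edgeR's quasi-likelihood test over 16431 genes, with the 10 genes of the rule left out. Without a term for the mouse, 20 genes were higher in interferon-responding than in comparison fibroblasts at an adjusted p (Benjamini-Hochberg) under 0.05, which is 0.122% of the genes tested, and 0 were lower (0.0%). At an unadjusted p under 0.05 there were 1124 genes in both directions, and DESeq2 on the same sums called 171 higher and 106 lower. Both groups come from the same 2 animals, and with the mouse as a block edgeR called 1102 genes higher (6.71%) and 1027 lower (6.25%), among them all of the 20. The sums of a mouse stand for 1 animal each. Without the block, the p-values measure the spread between 2 mice, with 3 residual degrees of freedom. With the block, the difference between the mice is removed. The 2 residual degrees of freedom then measure only how far the group differences disagree between the mice, over the 6 sums. Genes are said to have risen or fallen below where they passed the blocked test, and those that also passed without the block are named as such.

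The 20 genes that passed both tests were Igtp, Irgm1, Irgm2 and Ifi47 of the immunity-related GTPases, Oas1a, Oasl1, Oasl2, Eif2ak2, Rtp4, Xaf1, Tor3a and Cmpk2 of the antiviral effectors, Slfn2 and Slfn8 of the Schlafen family, and Phf11b, Phf11d, Rnf213, Sp140, Plscr2 and Helz2. The first 14 of them belong to the 6 interferon lists described below. Phf11d, a PHD finger gene with a close copy in Phf11b, stood at 71.2 and 99.7 CPM in the responding fibroblasts of the 2 mice, 23.8 and 26.2 CPM in cells with 1 to 4 UMIs and 10.9 and 11.1 CPM in the comparison cells. Its log2 fold change was 3.08 ± 0.19 (SE; edgeR adjusted p = 0.0302, and 0.000187 with the block). Rtp4, which encodes an interferon-induced chaperone of receptors, stood at 63.8 and 102 CPM against 9.56 and 11.96, a log2 fold change of 3.07 ± 0.27 (edgeR adjusted p = 0.0413).

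Oasl2, of the oligoadenylate synthetase family that senses double-stranded RNA, stood at 95.5 and 165 CPM in the responding fibroblasts and 15.9 and 18.97 CPM in the comparison cells (log2 3.02 ± 0.29; edgeR adjusted p = 0.0470). Rnf213, a large ubiquitin ligase, stood at 138 and 185 against 32.3 and 34.1 CPM, and Xaf1, a partner of the apoptosis inhibitor XIAP, at 73.1 and 97.9 against 19.5 and 16.4 CPM. Eif2ak2, the kinase PKR that halts translation on sensing viral RNA, stood at 85.6 and 101 against 31.8 and 31.9 CPM, a log2 fold change of 1.67 ± 0.15. These 6 genes were named because their groups did not overlap, so that separation was fixed by the choice, and in each of them the sums of the cells with 1 to 4 UMIs lay between the groups. Bst2, whose level differed more between the mice, did not pass without the block (log2 2.71 ± 0.82; edgeR adjusted p = 0.537) and passed with it (2.39 ± 0.31; 0.00592).

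**Figure D2:**
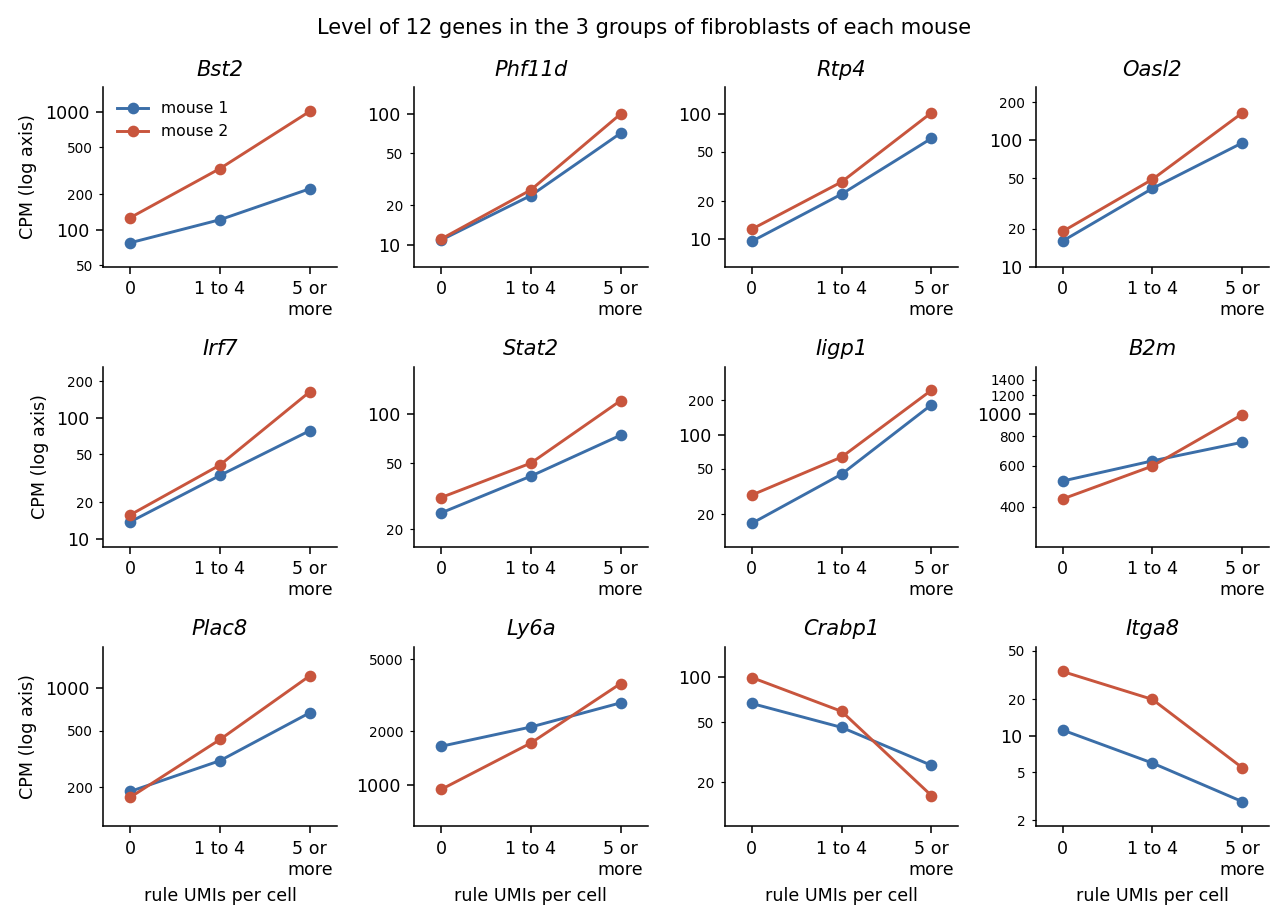
Level of 12 genes (CPM, log axes that differ between panels) in the fibroblasts of each mouse with 0, 1 to 4, and 5 or more UMIs of the 4 rule genes; each point is the sum over the cells of 1 mouse. The 10 genes up to Ly6a stand highest at 5 or more UMIs in both mice, Bst2 at 223 and 1010.4 CPM, and Crabp1 and Itga8 stand lowest there.

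Over 6 lists of interferon genes (antiviral effectors, Isg15 conjugation with PARPs, sensors, transcription factors, MHC class I and GTPases), 120 of 131 genes could be tested. Of these, 102 rose with the block and 14 also without it, and 1 fell. Their median log2 fold change was 1.56, where that of all genes tested was 0.01. On plain CPM, without TMM scaling, the median over all genes was -0.10 in mouse 1 and -0.12 in mouse 2. A further setting kept cells of like depth, within the 10th to 90th percentile of the UMIs of the responding cells of each mouse. Median depths of responding and comparison cells were then 10758 and 10203 UMIs in mouse 1 and 13138 and 12237.5 in mouse 2. There, 100 of 118 list genes rose with the block, where 6.68% of all genes did. With cells that carried immune UMIs removed, 101 of 120 list genes rose, where 6.79% of all genes did.

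Antiviral effectors made up the longest of these lists. Of the 35 tested, 31 rose with the block and 8 also without it, with a median log2 fold change of 1.92. Rsad2, the enzyme viperin that makes a chain-terminating nucleotide, stood at 46.5 and 49.6 CPM in the responding cells against 1.17 and 3.38 CPM, a log2 fold change of 4.63 ± 0.32 with the block (edgeR adjusted p = 0.000612, and 0.103 without). Oasl1 and Oas1a passed both tests, with log2 fold changes of 3.92 and 3.57, at levels of 9.80 and 11.5 CPM and of 15.2 and 20.9 CPM. The most abundant member was Ifitm3, a membrane protein that blocks viral entry, at 2259 and 3350.0 against 1217 and 842 CPM (log2 1.56 with the block). The exception was Ifitm1, of the same family, which fell from 32.7 and 53.3 CPM to 9.26 and 20.4 CPM (log2 -1.42 ± 0.12; edgeR adjusted p = 0.00107 with the block), and Ifi27 and Zc3hav1 were among those that did not pass.

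The enzymes that attach Isg15 to other proteins rose, as did the rest of their list, which also holds Usp18 and genes of the PARP family. All 10 of the conjugation and PARP list rose with the block, none of them without it, with a median of 1.73 on the log2 scale. Usp18, the protease that removes Isg15 and also damps receptor signaling, stood at 59.6 and 54.8 CPM in the responding cells and at 8.79 and 5.15 in the comparison cells (log2 3.18 ± 0.16; edgeR adjusted p = 0.000279 with the block, 0.0629 without). Parp14 stood at 78.8 and 119 against 23.9 and 25.6 CPM, and Herc6, the ligase for Isg15 in mice, at 43.7 and 76.0 against 12.3 and 17.6 CPM.

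Among the nucleic acid sensors and their kin, 18 of 21 rose with the block and 2 of them, Slfn2 and Slfn8, without it. Tmem173 and Mavs, the adaptors of the DNA and RNA sensors, and Ifi209 did not pass. Zbp1, a sensor of Z-form nucleic acid, stood at 68.9 and 103 CPM against 16.6 and 10.4. Ifih1, the RNA sensor MDA5, stood at 42.7 and 69.9 against 13.1 and 16.1 CPM, and Ddx58, the RNA sensor RIG-I, at 43.0 and 64.7 against 18.1 and 22.97 CPM, a log2 fold change of 1.51 ± 0.10 with the block.

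The GTPases showed the largest median of any list, 2.76 on the log2 scale, with 16 of 17 tested genes higher with the block and 4 also without it. Iigp1 was the most abundant, at 183 and 246 CPM in the responding fibroblasts, 44.9 and 63.5 in cells with 1 to 4 UMIs and 16.6 and 29.5 in the comparison cells (log2 3.37 ± 0.11; edgeR adjusted p = 0.000157 with the block and 0.0588 without). Igtp, whose promoter is shown above, stood at 34.7 and 41.2 against 4.98 and 5.39 CPM, and its log2 fold change of 2.99 ± 0.16 had an edgeR adjusted p of 0.0302 without the block. After thinning to 3000 UMIs, an Iigp1 UMI was seen in 33.0% and 43.6% of the responding cells and 4.71% and 6.95% of the comparison cells. In the Krt5/Krt14-high keratinocytes it was seen in 2.08% and 2.07%. Iigp1 was not particular to fibroblasts. Cells with endothelial UMIs had 105 and 287 CPM of it, against 44.2 and 135 over all fibroblasts, and cells with immune UMIs had 14.2 and 19.4. Many genes of these families (the Gbp, Irgm, Tgtp, Oas and Slfn genes, and Ifit3 with Ifit3b) have close copies. How well 3′ reads tell these copies apart was not tested.

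Of the transcription factors that carry the signal, 9 of 14 rose with the block and none passed without it. Stat2 stood at 74.2 and 120.3 CPM against 25.03 and 31.0 (log2 1.90 ± 0.12), and Irf9 at 31.3 and 46.3 against 16.9 and 15.5 CPM. Irf7, the factor that amplifies type I interferon production, stood at 78.3 and 164 CPM against 13.8 and 15.8, a log2 fold change of 3.09 ± 0.21 with the block (edgeR adjusted p = 0.000616, and 0.0784 without). Irf1 differed less, at 207 and 207 against 142 and 181 CPM (log2 0.48 ± 0.09). Stat3, Irf3, Irf5, Irf8 and Ciita, the master factor of MHC class II, did not pass.

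The receptors differed little. Of 9 receptor and Janus kinase genes, 2 rose with the block: Ifnar2, from 89.0 and 81.3 CPM to 108 and 115 (log2 0.51 ± 0.08), and Jak1, from 342 and 276 to 446 and 371 CPM (log2 0.52 ± 0.06). Ifnar1 stood at 29.9 and 30.5 against 31.0 and 34.0 CPM, and Ifngr1 at 108 and 116 against 102 and 111 CPM. Neither passed. Of 9 genes listed as inhibitors, 3 rose with the block. They were Socs1 and Socs3, which close the pathway, and Cd274, a checkpoint ligand for T cells. Socs3 went from 87.2 and 106 to 136 and 153 CPM, while Socs2, at 119 and 39.1 against 103 and 47.8 CPM, did not pass.

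Transcripts of the interferons themselves were rare. Of 12 interferon genes in the matrix, 10 had no UMI in any responding fibroblast, where 3 UMIs would have been 0.408 CPM in mouse 1 and 0.0805 CPM in mouse 2. Ifnb1 had 3 and 17 UMIs in the responding cells of the 2 mice and 6 and 3 in the comparison cells, or 0.408 and 0.456 against 0.160 and 0.143 CPM, and Ifng had 1 and 2 UMIs against 1 and 1. Both were too low to be tested. Il15, a cytokine for lymphocytes, and Tnfsf10, the death ligand TRAIL, rose with the block, Il15 from 14.8 and 15.7 to 22.2 and 30.2 CPM.

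Most MHC class I genes rose. With the block, 18 of 23 tested genes rose and none fell, with a median log2 fold change of 1.00, and Tapbp, Tapbpl, Erap1, Calr and Canx did not pass, nor did any without the block. B2m, the light chain of class I, stood at 755 and 993 CPM against 515 and 432, a log2 fold change of 1.00 ± 0.15 (edgeR adjusted p = 0.00889). H2-K1, a heavy chain with close relatives, stood at 444 and 561 against 263 and 224 CPM. The immunoproteasome subunit Psmb8 stood at 119 and 131 against 51.7 and 41.7 CPM, and the peptide transporter Tap1 at 20.6 and 31.1 against 8.55 and 9.34 CPM.

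MHC class II was low throughout. Cd74, the invariant chain, stood at 26.3 and 18.7 CPM in the responding cells and 9.85 and 12.4 in the comparison cells, and H2-Ab1 at 7.76 and 7.08 against 3.06 and 4.34 CPM. With the block 3 of 6 class II genes rose (Cd74, H2-Aa and H2-Ab1) and 4 of 6 in cells of like depth. With the cells that carried a UMI of an immune marker removed, 0 of 6 did. The log2 differences were then 0.12 for Cd74, 0.03 for H2-Ab1 and -0.11 for H2-Aa. Such cells made up 4.70% and 9.47% of the responding fibroblasts and 3.81% and 8.50% of the comparison cells.

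Chemokines and cytokines rose in part, 12 of 20 tested with the block and none without it. Cxcl9, a T cell chemokine closely tied to type II interferon, stood at 12.2 and 43.3 CPM against 1.78 and 4.81 (log2 3.12 ± 0.15 with the block). Ccl7, a monocyte chemokine, stood at 416 and 395 against 175 and 117 CPM, and Csf1, the macrophage growth factor, at 555 and 303 against 297 and 140.3 CPM. Cxcl13, which draws B cells, stood at 135 and 401 against 81.4 and 101 CPM. NF-kB targets rose in 7 of 13 cases with the block, with a median log2 fold change of 0.53 without it. Cxcl10, which NF-kB can also switch on, was among the genes that chose the cells. The values of some of these targets with Cxcl10-led cells set apart are given below. Nfkbia, the NF-kB inhibitor and a target of it, stood at 901 and 485 against 577 and 464 CPM and did not pass (edgeR adjusted p = 0.0571 with the block). Of 25 immediate early and heat shock genes, which also respond to cell dissociation, 12 rose and 1, Egr2, fell with the block. Fos stood at 2199 and 1482 CPM against 1497 and 1269, and Atf3 at 464 and 396 against 285 and 246 CPM. The part of dissociation in these values was not tested.

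**Figure D3:**
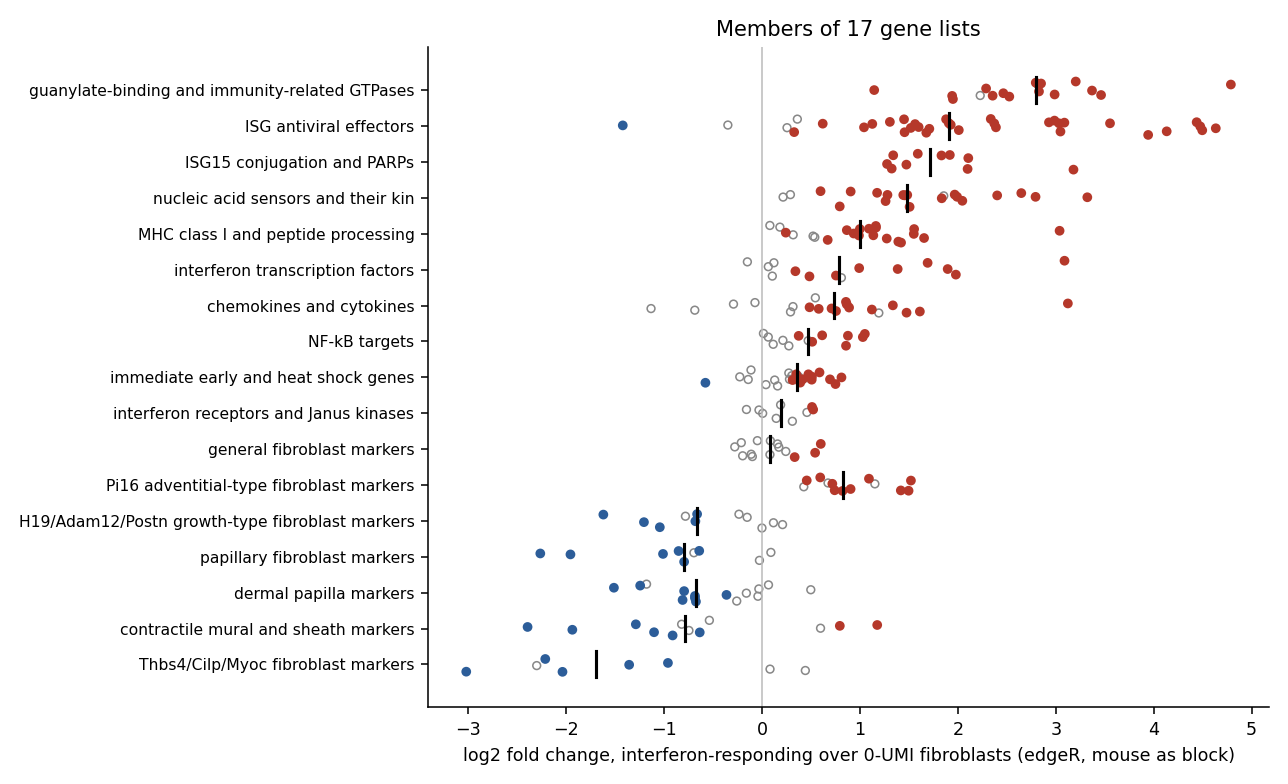
Log2 fold change of each tested gene of 17 lists (points; red higher and blue lower at an adjusted p under 0.05, open not called) between interferon-responding and 0-UMI fibroblasts, edgeR with the mouse as a block over 2 mice; black bars are list medians. The interferon lists at the top lie mostly to the right of 0, with 16 of 17 GTPases and 31 of 35 antiviral effectors higher, and the papillary, dermal papilla, contractile and Thbs4/Cilp/Myoc lists lie mostly to the left.

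Within the interferon-responding set, cells that were chosen mostly by Cxcl10 differed from the others in their further genes, given here as a description since Cxcl10 chose them. Most of the UMIs of the 4 genes came from Cxcl10 in 252 cells of mouse 1 (40.8%) and 354 cells of mouse 2 (13.5%), and from Isg15 in 219 and 1710 cells. Cxcl10 alone supplied all of them in 134 cells of mouse 1 and 47 of mouse 2. In both mice all 13 NF-kB targets stood higher in the Cxcl10-led cells than in the other responding cells, as did 21 and 24 of 25 immediate early and heat shock genes. The share of all genes that stood higher in the Cxcl10-led cells was not counted, so these counts have no background beside them. Nfkbia stood at 1170.4 CPM in the Cxcl10-led cells against 707 in the others of mouse 1 and at 932 against 410.5 in mouse 2. The neutrophil chemokine Cxcl1 stood at 778 against 341 and at 484 against 164 CPM, and Irf1 at 276 against 157 and at 403 against 174 CPM. In mouse 2 the other responding cells lay below the comparison cells for Nfkbia (410.5 against 464 CPM) and Tnfaip3 (58.2 against 61.6). They lay above them for Nfkbiz (158 against 89.6) and Ptgs2 (27.1 against 23.1). In mouse 1 they lay above the comparison cells for each of these genes, with Nfkbia at 707 against 577 CPM.

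The antiviral genes went the other way. In the other responding cells, Isg15, Ifit1 and Ifit3 together supplied at least as many UMIs as Cxcl10. The split itself may thus favor this direction, and the values are a description only. Only 4 of 34 antiviral effectors in mouse 1 and 4 of 35 in mouse 2 stood higher in the Cxcl10-led cells. None of the 10 Isg15 conjugation and PARP genes did in either mouse. Of the GTPases, 0 of 13 stood higher there in mouse 1 and 5 of 18 in mouse 2. For these counts, too, the share over all genes was not taken. Irf7 stood at 28.0 CPM in the Cxcl10-led cells against 114 in the other responding cells of mouse 1, where the comparison cells had 13.8, and at 82.4 against 178 CPM in mouse 2. Bst2 stood at 134 against 286 and at 716 against 1059.6 CPM. Iigp1 stood at 59.5 against 272 and at 179 against 257 CPM. The mice were not alike in every gene: Rsad2 stood at 14.0 against 70.0 CPM in mouse 1 but at 61.1 against 47.6 CPM in mouse 2. The 2 kinds of cell had like depths, with medians of 11240.5 and 10730.0 UMIs in mouse 1 and 13168.5 and 13122 in mouse 2.

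Shares of responding cells were also taken by kind of fibroblast, as a description. Pi16 and Dpp4 mark the adventitial-type fibroblasts that surround vessels and lie deep in the dermis. After thinning, a UMI of either was seen in 4669 of 6258 fibroblasts of mouse 1 and 3713 of 6237 of mouse 2. This class thus held most fibroblasts and is no narrow subtype. At 3000 UMIs a cell, 6.597% of the cells with a Pi16 or Dpp4 UMI in mouse 1 carried 3 or more UMIs of the 4 genes (exact 95% interval 5.90 to 7.35), against 2.96% of those without (2.18 to 3.91). In mouse 2 the shares were 35.4% (33.9 to 37.0) and 13.4% (12.05 to 14.7). Cells with a UMI of Crabp1 or Col13a1, markers of the papillary dermis under the epidermis, were on the low side, 3.30% against 6.11% in mouse 1 and 7.15% against 29.2% in mouse 2.

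Cells with the contractile genes Acta2, Mylk or Itga8 were also low, 3.75% against 5.94% and 15.3% against 29.7%. The growth-type marker Adam12 gave 4.24% against 6.14% and 16.1% against 32.6%. For the dermal papilla marker Corin the shares were 3.07% (1.24 to 6.22) against 5.66% and 20.5% (15.6 to 26.0) against 27.1%, with intervals that overlapped in mouse 1 and, barely, in mouse 2. Thbs4, Cilp or Myoc gave 5.50% against 5.67% in mouse 1 and 30.0% against 25.5% in mouse 2, so the mice did not share a direction. All of these intervals cover counting error within a library.

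**Figure D4:**
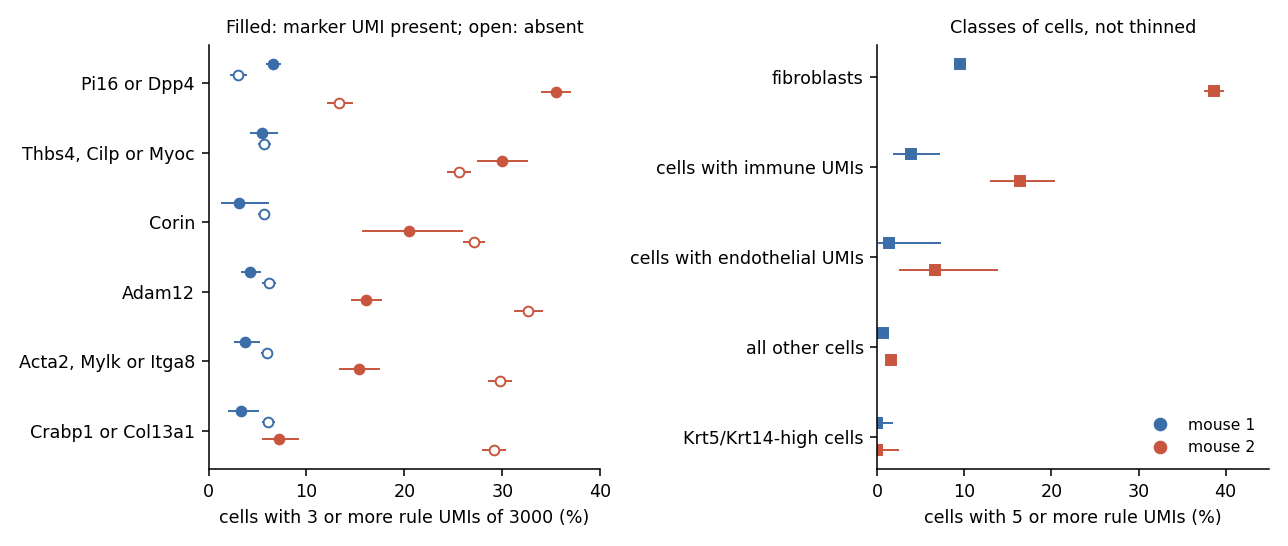
Left, share of fibroblasts (percent) with 3 or more UMIs of the 4 rule genes after thinning to 3000 UMIs, in cells with (filled) and without (open) a UMI of the markers named; right, share of cells of each class with 5 or more such UMIs, not thinned; blue is mouse 1, red is mouse 2, and bars are exact binomial 95% intervals. The Pi16 or Dpp4 cells stand at 6.597% and 35.4% and the Crabp1 or Col13a1 cells at 3.30% and 7.15%, and no Krt5/Krt14-high cell met the rule.

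In the sums of cells, 10 of 13 Pi16-type markers rose with the block and none fell, with Dpp4, Cd55 and Sema3c not past the test. The largest levels were those of Ly6a, at 2866 and 3667 CPM against 1646 and 948 (log2 1.496 ± 0.24), and Igfbp6, at 3278 and 2523 against 2603 and 1335 CPM. Ly6a and Ly6c1, which have close copies, are themselves known to respond to interferon. Pi16 stood at 1404 and 461 against 1139 and 192 CPM (log2 0.90 ± 0.20; edgeR adjusted p = 0.0351 with the block and 0.951 without), and its level differed more between the mice than between the groups.

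Markers of other fibroblast kinds fell in part. With the block, 6 of 9 papillary markers, 8 of 15 dermal papilla markers, 5 of 11 H19/Adam12/Postn markers, 5 of 8 Thbs4/Cilp/Myoc markers and 6 of 12 contractile markers were lower, and none of these passed without it. Crabp1, a retinoic acid binding protein of the papillary dermis, stood at 25.9 and 16.3 CPM in the responding cells, 46.2 and 59.0 in cells with 1 to 4 UMIs and 66.5 and 98.9 in the comparison cells (log2 -1.96 ± 0.26; edgeR adjusted p = 0.00615 with the block, 0.164 without). Itga8, an integrin of the contractile dermal sheath, stood at 2.86 and 5.44 against 11.1 and 33.8 CPM, and smooth muscle actin, Acta2, at 36.1 and 44.6 against 96.1 and 116 CPM. Thbs4, a matrix protein of tendon-like cells, stood at 5.72 and 22.7 against 38.6 and 90.6 CPM, and the imprinted RNA H19 at 50.9 and 81.6 against 101 and 248 CPM. Crabp1, Itga8 and H19 were chosen after their values were seen. Other abundant markers of these lists did not pass. Cilp, of the same list as Thbs4, stood at 93.4 and 164 against 126.5 and 131 CPM (log2 0.08 ± 0.16 with the block). Ptn, of the list of H19, stood at 488 and 502 against 439 and 491 CPM, and Apcdd1, of the papillary list, at 81.5 and 57.9 against 82.8 and 59.1 CPM. The contractile list also held 2 genes that rose, the potassium channel subunits Abcc9 and Kcnj8 of pericytes.

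General fibroblast genes differed little, with 3 of 14 higher and none lower with the block. Vim stood at 2049 and 2047 CPM against 1847 and 2147, and Pdgfra did not pass (log2 0.08 ± 0.06). Among 26 other matrix genes 10 rose and 2 fell, with the most abundant of them, Sparc, at 10210.2 and 10768 against 11349 and 13057 CPM and not past the test. The small leucine-rich proteoglycan Ogn rose from 1059.7 and 474 to 1466 and 1437 CPM. None of 21 genes of S and G2/M phase passed in either direction, with or without the block.

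A Pi16 or Dpp4 UMI was seen in a larger part of the responding cells than of the rest. The comparison was therefore repeated within cells split by their raw count of Pi16 and Dpp4 UMIs, a step added after the data were seen. Among fibroblasts with 3 or more UMIs of Pi16 and Dpp4, 95 of 118 interferon list genes and 2 of 13 Pi16-type markers rose with the block, where 3.17% of all genes tested did. Among those with none, 80 of 108 interferon list genes and 7 of 11 Pi16-type markers rose, where 4.62% of all genes did, with 22 responding cells in mouse 1 and 199 in mouse 2. Depth was not matched in this split. Median depths of responding and comparison cells with none were 10847 and 7943 UMIs in mouse 1 and 13370 and 7368.5 in mouse 2. A count of 0 in the shallower cells is thus not like content, and the part of depth was not tested. Bst2 rose in both, by 2.01 ± 0.25 and 2.40 ± 0.20 on the log2 scale, Rsad2 by 4.58 and 3.76, and Ly6a by 0.99 and 1.12. Thbs4 and Crabp1 fell in both, Thbs4 with log2 values of -2.84 and -2.54 and Crabp1 with -1.26 and -1.02. Acta2, H19 and Ednrb, the endothelin receptor B, fell only where Pi16 and Dpp4 were absent, with log2 values of -1.34, -1.46 and -2.08 there and -0.28, -0.30 and -0.03 among the Pi16- and Dpp4-rich cells; the difference between these 2 settings was not tested. Pi16 itself did not pass among the Pi16- and Dpp4-rich cells (log2 0.10 ± 0.08).

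Markers of other cell types were summed in the same cells, and their part in the results was not tested. The 18 immune markers summed to 33.9 and 72.3 CPM in the responding cells and 31.0 and 56.8 in the comparison cells, with the Langerhans cell marker Cd207 at 0 in the responding cells of both mice and in the comparison cells of mouse 1. None of the 16 tested passed in either direction in these sums, while in cells of like depth 2 of 16 rose with the block, with a median log2 fold change of 0.73. Ptprc, which encodes CD45, stood at 1.09 and 3.46 against 1.598 and 5.62 CPM. Endothelial markers summed to 174 and 221 against 188 and 149 CPM, with Kdr higher and Plvap lower with the block, and Pecam1, which encodes CD31, at 1.497 and 2.33 against 1.94 and 4.004 CPM. Keratinocyte markers summed to 996 and 846 against 1265 and 879 CPM (1 of 21 lower) and melanocyte markers to 254 and 472 against 340.4 and 588 CPM (0 of 8 called). Of 10 Schwann cell markers 1 rose and 2 fell.

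The same minimum was counted in the other cells of these libraries, without a test of the difference. The rule's 5 UMIs were reached by 9 of 234 cells with immune UMIs in mouse 1 (3.85%) and 66 of 403 in mouse 2 (16.4%), by 1 of 74 and 6 of 91 cells with endothelial UMIs, by 8 of 125 (6.40%) and 33 of 169 (19.5%) of the collagen-rich cells whose keratin UMIs were above the fibroblast limit, and by 44 of 7312 (0.602%) and 100 of 6319 (1.58%) of all remaining cells. None of the 204 and 150 Krt5/Krt14-high keratinocytes reached it, which by the limit of 3 counts allows a share of up to 1.47% and 2.0%, while the exact 95% intervals reach 1.79% and 2.43%. After thinning to 3000 UMIs with a minimum of 3, in a draw of its own, the shares were 4.74% and 14.4% of the cells with immune UMIs, 1.96% and 20% of the collagen-rich cells above the keratin limit and 5.82% and 26.7% of the fibroblasts. These classes differed in depth, with median UMIs of 4824.5 and 5725 in the cells with immune UMIs and 6925.5 and 10152 in the keratinocytes. Isg15 stood at 67.4 and 382 CPM over all fibroblasts, 48.4 and 203 over cells with immune UMIs and 12.4 and 19.1 over the keratinocytes.

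The promoter core shown at the start was unevenly spread over the gene lists, as a count of letters and not of binding. It stood in a promoter of 7 of 17 genes that rose without the block (41.2%), of 100 of 836 that rose with it (11.96%) and of 31 of 764 that fell with it (4.06%), against 3.84% of all genes with a promoter in the table. By list it stood in 9 of 10 GTPase genes, 11 of 17 of the sensors and 12 of 27 of the antiviral effectors. It also stood in 5 of 20 of the MHC class I genes and 2 of 10 transcription factors. For the Isg15 conjugation and PARP list it was 1 of 6, and for the NF-kB targets none of 9. The core of the gamma-activated site, a further element of interferon genes with the letters TTCNNNGAA on either strand, was in 1007 of the 12138 genes (8.30%), in 85 of 836 of those that rose with the block (10.2%), in 5 of the 10 GTPase genes, 3 of the 9 NF-kB targets and none of the 17 sensors.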

How the data were processed

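Back skin cells of 2 wild-type mice were profiled with 10x Genomics 3′ V3 chemistry. Per the labels and the file headers, the authors aligned reads to mm10 with Cell Ranger (7.0.1 in the submitters' processing notes, 7.0.0 in the matrix header) and deposited raw UMI counts per gene and barcode. The study's methods name SoupX and DoubletFinder. The deposited counts are whole numbers and were used without ambient correction, so free RNA remains in them. Doublets were marked with Scrublet (expected rate 10%) and kept, apart from an alternative without them.

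Cells were chosen by the rule in the text, and CPM are counts scaled to 1000000 UMIs of a sum of cells. Counts were summed per mouse and group (6 sums) and tested with edgeR 4.0.16 (filterByExpr, TMM, glmQLFit and glmQLFTest; R 4.3.3), without the mouse and with it as a block. Numbers pair the sums because they come from the same animal. Deviations from the group means correlated between the sums of a mouse at 0.63 to 0.83 over 16431 genes. DESeq2 1.42.0 was an alternative. Symbols on more than 1 row (Ccl19 among the lists) were left out. On simulated counts of 16143 genes, 100 genes were changed by 1 and 100 by 2 on the log2 scale. The test without the block recovered 15% of the changes of 1 and 91% of the changes of 2, with 6 false calls. With the block, over 16200 genes, it recovered 100% of both, with 17 false calls. All changed genes were drawn from genes above a minimum mean CPM. Genes of lower level, Oasl1 and H2-Ab1 among them, were never changed, so the recovery in such genes was not tested.

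The members and gene lists were chosen with earlier results of these data known. Named genes are the 5 markers, the genes called without the block with a mean of at least 50 CPM in the higher group and no overlap between groups (6 genes), up to 4 called members of each list or else its 2 most abundant, and the steps of the pathway. Genes named outside this rule, among them most of those called only with the block, were chosen after their values were seen. Shares carry exact Clopper-Pearson 95% intervals. Intervals and the limit of 3 counts used for a count of 0 cover counting error only. Thinning used fixed seeds in Python 3.11.15 with scanpy 1.11.5. Promoters are RefSeq's, build GRCm38.p6. They cover 12138 of 16406 tested symbols, and genes without an entry (Rtp4 and Usp18 among them) are not shown. Some genes that count in the lists are not reported here by name.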

Additional observations from a re-analysis of the deposited data

How the results depend on the processing

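Counts without the mouse as a block rested on single sums. The 20 higher genes and 14 interferon list genes became 0 to 12 and 0 to 9 when 1 sum was left out (12 and 9 without the responding cells of mouse 1, otherwise 0; a lone sum is then assumed to vary like the other groups). They became 171 and 81 with DESeq2, 111 and 70 with no filter on low counts, 1102 and 102 with the replicate block, 49 and 29 with members at 10 or more UMIs, 9 and 7 with doublets removed, 0 and 0 against all fibroblasts with fewer than 5 UMIs, and, added after seeing the data, 0 and 0 among cells with 3 or more Pi16 and Dpp4 UMIs and 82 and 49 among cells with 0. The count of 0 lower genes became 106 with DESeq2, 50 with no filter, 1027 with the replicate block, 1 with members at 10 or more UMIs, 1 with Krt5 and Krt14 at 0, and 58 among cells with 0 Pi16 and Dpp4 UMIs. With the block, 1102 higher and 1027 lower genes became 472 to 2054 and 474 to 1673 when 1 sum was left out (lowest without the comparison cells of mouse 2, highest without the responding cells of mouse 1), 595 and 599 against fibroblasts with fewer than 5 UMIs, 294 and 437 with an absolute log2 fold change over 1, 481 and 338 among cells with 3 or more Pi16 and Dpp4 UMIs, 584 higher among cells with 0 of them (22 responding cells in mouse 1), and 632 lower with DESeq2 and the block. The count of 102 interferon list genes was 80 to 110 over the settings with the block. Leaving out a whole mouse leaves no residual degrees of freedom, so folds per mouse are given instead. The responding share of 9.48% and 38.6% became 14.8% and 47.1% at 3 or more UMIs, 4.55% and 25.9% at 10 or more, 5.96% and 26.7% after thinning, and 42.3% in mouse 2 with stricter quality limits. The share with a Bst2 UMI, 45.0% and 86.8% in responding and 20.1% and 25.9% in comparison cells, became 27.6% and 71.8% and 11.3% and 16.2% at 1500 UMIs, and 78.8%, 98.1%, 40.3% and 49.6% without thinning. Log2 values changed sign with the block among cells with 0 Pi16 and Dpp4 UMIs for Il15 (-0.20), Cilp (-1.04), Col18a1 (0.00384), Fgf10 (1.20, and 1.22 without the block), Scn7a (-0.0563), Fabp4 (0.86), Kdr (-0.28) and Plvap (0.24), for Cilp (-0.46) and Corin (0.0919) among cells with 3 or more, for Cilp (-0.28) without the responding cells of mouse 2, and for H2-Aa (-0.11) with immune UMIs removed. For all these changes the cause was not tested. The 2 mice and the depth of single cells limit what can be called.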

Other observations

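Several secreted factors outside the interferon lists stood high in the interferon-responding fibroblasts, and all of the genes in this section were chosen after their values were seen. Adm, the vessel-dilating peptide adrenomedullin, stood at 558 and 384 CPM in the responding cells of the 2 mice and at 227 and 110.3 CPM in the comparison cells (log2 1.66 ± 0.12; edgeR adjusted p = 0.000733 with the mouse as a block, 0.510 without). Vegfd, a lymphatic growth factor, stood at 172 and 222 against 88.0 and 72.5 CPM, and Lgals9, a lectin that binds T cells, at 151 and 196 against 77.7 and 51.8 CPM. The complement genes C4b and Cfb stood at 246 and 339.7 against 150.1 and 62.6 CPM and at 74.5 and 146 against 44.4 and 26.7 CPM, with folds of 1.64 and 1.68 in mouse 1 and 5.42 and 5.45 in mouse 2. Adm, Vegfd, Lgals9, C4b and Cfb were also higher with the block among Pi16- and Dpp4-rich cells, at log2 values of 1.39, 1.22, 1.22, 1.28 and 1.22, and among cells without these UMIs, at 0.95, 0.96, 1.29, 1.40 and 1.68. Plac8 stood at 668 and 1215 against 187 and 169.8 CPM (log2 2.45 ± 0.22 with the block).

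Other genes stood low. Hc, which encodes complement factor C5, stood at 4.36 and 4.72 CPM in the responding cells and 23.8 and 39.9 in the comparison cells (log2 -2.79 ± 0.15; edgeR adjusted p = 0.000330 with the block, 0.103 without). St6galnac3, a sialyltransferase, stood at 17.3 and 28.4 against 80.4 and 281 CPM, and Adamts18, a matrix protease, at 8.30 and 15.1 against 39.4 and 106 CPM. The skeletal muscle genes Ckm and Myl1 stood at 8.03 and 10.2 against 29.5 and 33.3 CPM and at 4.63 and 5.39 against 12.7 and 16.4 CPM. Of 18 retinoid genes 5 fell with the block, among them Stra6, Crabp1, Crabp2 and Cyp26b1, which handle the uptake, binding and breakdown of retinoids, and Aldh1a1, which makes retinoic acid, rose. The receptors Rarg, at 34.8 and 36.7 against 44.4 and 38.8 CPM, and Rxra, at 22.05 and 21.2 against 22.3 and 22.8 CPM, did not pass. Among 8 adipocyte markers tested 1, Lpl, rose and 3 fell with the block, and Lep was at 0 in the responding, intermediate and comparison cells of both mice.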
